A study of Mus musculus with 20 samples.

Results

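The genes described here are 177 genes of kinase and protein phosphatase signalling, out of 9230 genes that the arrays named by a single symbol. They were chosen by symbol, with earlier results of these data known. The rule took genes whose annotated symbol begins with the family names Map2k, Map3k, Map4k, Mapk, Camk, Prkc, Prkd, Akt, Pik3, Gsk3, Stk with a number, Dusp, Ptpr, Ptpn, Ppp1 to Ppp6, Rps6k or Csnk. Prkca, Prkcd and Ptpn14 carry such symbols and are not analysed here. Of the 177 genes, 89 carry kinase symbols and 88 carry phosphatase symbols. Some of them are neither enzyme, since the families also name scaffolds (the Mapk8ip genes), inhibitors (Camk2n2) and regulatory subunits, and Ppp1r2-ps7, Ppp1r2-ps9, Ptprv and Stk35os1 are not protein coding in RefSeq. Where a gene had more than 1 probe (5 genes), the brightest, by mean log2 intensity over all 20 arrays, stood for it.

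Protein kinases attach phosphate to other proteins and protein phosphatases remove it, so the state of a signalling protein depends on both. In a MAP kinase cascade, each kinase phosphorylates the next, ending in the ERK, JNK and p38 enzymes, and dual-specificity phosphatases switch these off again. Calcium acts through calmodulin on the CaMKII kinases and on the phosphatase calcineurin, which are both known for their roles at synapses, and PI3 kinase makes the membrane lipid that recruits Akt. Receptor tyrosine phosphatases are membrane proteins, several of which are known from axon growth and cell adhesion, whereas protein phosphatase 1 pairs a few catalytic subunits with many regulatory ones.

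Total RNA came from 2 pools: retina of adult C57/B6 mice, and cortex of postnatal day 1 Swiss-Webster mice. Both were hybridised to 5 one-colour CodeLink arrays at a first site and to 5 more at site 2, which gave 20 arrays in 4 groups, and the labels call the arrays of a group technical replicates. The p-values therefore measure only the spread between arrays of the same RNA. Tissue, strain and age cannot be told apart, and in such bulk RNA fewer cells of a type and less RNA per cell cannot be told apart either. The deposited intensities have no unit: array medians ran from 0.927 to 0.966, so 1 is close to the median probe, and no probe's level is set against another probe's. First-site arrays had 22 to 39 blanks each, site 2 arrays 152 to 217.

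The tissue labels were checked on marker genes. All 8 measured rod and cone markers were higher in retina at both sites, with summed intensities of 419 to 588 on retina arrays and 15.1 to 28.9 on cortex arrays. Within the cortex pool, 3 of the 8 (Gnat1, Rp1 and Sag) were 18.8-fold, 8.20-fold and 6.23-fold lower at site 2, where the geometric mean of Gnat1 was 0.141 against 2.66 at the first site. Their part in the site differences of the signalling genes was not tested. All 4 measured markers of newborn cortical neurons were higher in cortex, with sums of 43.2 to 49.6 there and 1.11 to 1.70 in retina, and no marker of either list was at 0 on all arrays of a group. The fifth cortex array at site 2 stood apart from the other 4. Dixon's test was run on the 99 genes named in the text, 87 of them signalling genes, and this array held 20 of the 50 single-array outliers of the latter. Of the named genes, 18 were chosen after their values were seen, and several of these changed call without this array. The count therefore does not measure how often the array stood out over all genes. Over all tested signalling genes the cortex arrays of site 2 had a median SD of 0.23 log2 units against 0.14 to 0.15 in the other groups. Over all tested probes it was likewise 0.23 against 0.16 to 0.17. Without the fifth cortex array, the site 2 value of 6 signalling genes moved by over 1.5-fold and the call of 8 changed, and Ppp1cc had too few values to be tested.

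A gene was called on 2 conditions, an adjusted p under 0.05 (limma, Benjamini-Hochberg) and a change of 2-fold or more. At the first site, 23 of the 175 tested genes were higher in retina and 18 were higher in cortex. Among all 10339 tested probes, 24.9% were called in this comparison, 11.9% towards retina and 13.0% towards cortex. At site 2, 20 genes were higher in retina and 30 in cortex, beside 24.6% of all probes called, 11.1% towards retina and 13.5% towards cortex. The called shares of 23.4% and 28.6% of the signalling genes thus lay near the background. Without the fifth cortex array of site 2 the counts there were 16 and 27, and those at the first site were 22 and 18. The site 2 calls lost were those of Prkch, Ptprg, Ptprc, Stk4, Dusp4, Ppp1r12c and Ppp1r14d, and Ppp3cb was gained. The median difference over the 175 genes was -0.11 log2 units at the first site and -0.14 at site 2, beside -0.04 and -0.05 over all tested probes.

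At both sites, 16 genes were called towards retina and 16 towards cortex, beside 9.31% and 10.5% of all tested probes (19.8% in the same direction either way). None of the 175 was called in opposite directions at the 2 sites, 116 were called at neither, and 149 had a difference of the same sign at both. The 16 towards retina comprised 5 genes with kinase symbols and 11 with phosphatase symbols, whereas the 16 towards cortex comprised 10 and 6. The arrays of retina and cortex did not overlap for 98 genes at the first site and for 92 at site 2, beside 53.3% and 48.2% of all probes. Map2k6 and Ppp1r3f had no value on any site 2 array and were not tested.

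**Figure D1:**
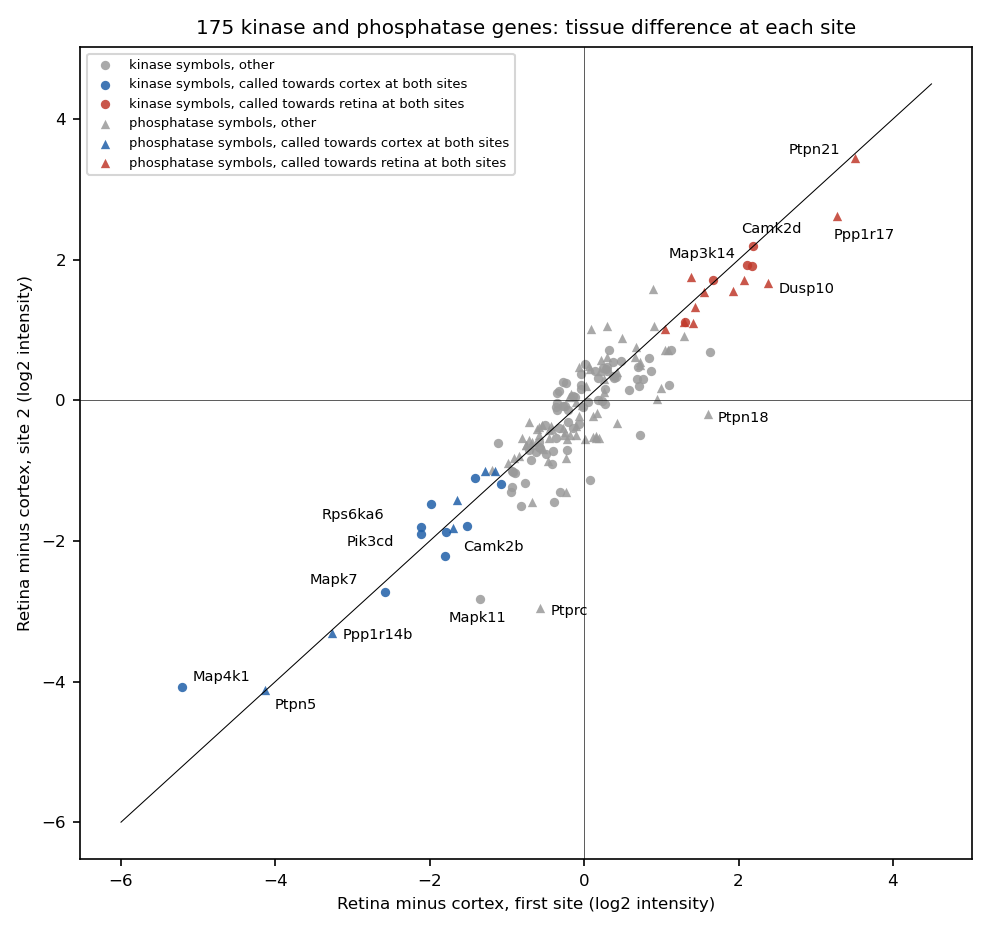
Retina minus cortex difference in log2 intensity at the first site (horizontal axis) and at site 2 (vertical axis) for the 175 tested genes, circles for kinase symbols and triangles for phosphatase symbols, with the 16 genes called towards retina at both sites in red and the 16 towards cortex in blue. The black line marks equal differences. Ptpn21 lies farthest towards retina and Map4k1 and Ptpn5 lie farthest towards cortex, and the coloured points all keep their side of 0 at both sites.

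**Figure D2:**
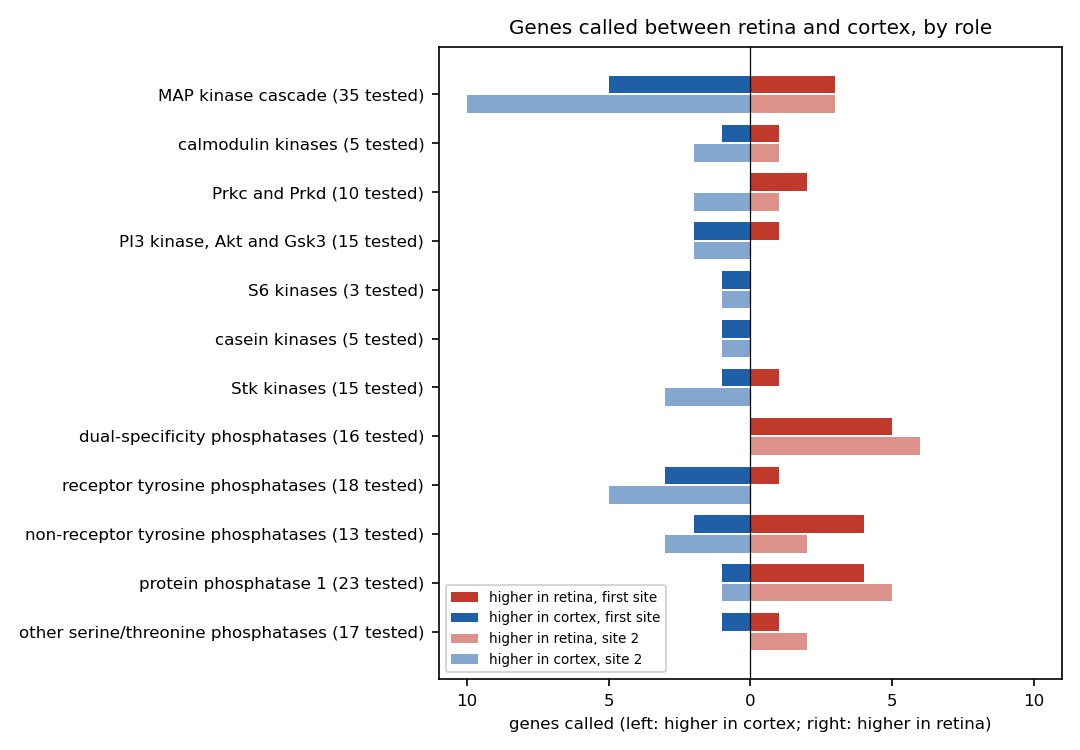
Number of genes called between retina and cortex in each of 12 groups of symbols, with bars to the right for genes higher in retina and to the left for genes higher in cortex, dark for the first site and pale for site 2. The dual-specificity phosphatases have bars towards retina only (5 and 6 genes), and the MAP kinase cascade has its longest bars towards cortex (5 and 10 genes). Over all tested probes, 11.9% and 11.1% were called towards retina and 13.0% and 13.5% towards cortex.

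The MAP kinase cascade was represented by 35 tested genes. First-site calls were 3 towards retina and 5 towards cortex, and site 2 calls 3 and 10, with the same 3 and 5 called at both. The median difference was -0.07 and -0.14 log2 units. Of all probes, 11.9% and 13.0% were called these ways at the first site, and 11.1% and 13.5% at site 2. At both sites it was 9.31% and 10.5%. At the top of the cascade, Map4k1, the haematopoietic progenitor kinase known from blood cells, differed more than any other of the 175 genes at the first site. Its intensity was 0.0898, 0.0695, 0.0646, 0.0482 and 0.0483 on the first-site retina arrays and 2.62, 1.99, 2.54, 2.47 and 2.00 on the cortex arrays. On site 2 arrays it was 0.163, 0.135, 0.0753, 0.158 and 0.109 in retina and 2.34, 2.52, 2.19, 1.89 and 1.62 in cortex. All 10 cortex arrays thus lay above all 10 retina arrays. Its log2 difference was -5.21 ± 0.20 (SE, n = 5 arrays a group) at the first site, 37.1-fold towards cortex, and -4.08 ± 0.20 at site 2, 16.9-fold (limma, adjusted p = 4.7e-14 and 1.8e-12). The retina values were close to the lowest 5% of intensities, which ended at 0.0445, and with all values under 0.1 raised to 0.1 the first-site difference was -4.53.

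Map4k1 is known from leukocytes, and leukocyte and microglia markers also differed between the pools. Of 7 measured, 3 (Aif1, Fcer1g and Lyz2) were higher in cortex at both sites. Their summed intensity was 6.76 to 7.51 on first-site retina arrays and 10.7 to 11.8 on cortex arrays, and 5.71 to 6.53 and 8.84 to 10 at site 2. Their part in the Map4k1 difference was not tested.

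Mapk7, which encodes the large MAP kinase ERK5, also was higher in cortex. It read 1.74, 1.35, 1.30, 1.35 and 1.37 in first-site retina and 7.82, 8.14, 8.31, 8.86 and 9.29 in cortex. The site 2 arrays read 1.24, 1.34, 1.25, 1.10 and 1.19 in retina against 7.45, 7.95, 11.3, 8.22 and 6.29 in cortex. The groups were far apart at both sites, with differences of -2.58 ± 0.12 and -2.73 ± 0.12 log2 units (SE; 5.99-fold and 6.63-fold; limma, adjusted p = 5.6e-13 and 2.5e-13). Map4k4, a kinase at the head of JNK signalling, was 3.48-fold and 4.66-fold higher in cortex. Map3k7, the TAK1 kinase of cytokine and TGF-beta signalling, was 2.11-fold and 2.28-fold higher in cortex.

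The 3 cascade genes higher in retina at both sites were Map3k14, Mapk12 and Map2k1. Map3k14, the NF-kappa-B-inducing kinase NIK, read 0.651, 0.687, 0.597, 0.592 and 0.575 in first-site retina and 0.122, 0.122, 0.159, 0.131 and 0.154 in cortex. Its difference was 2.18 ± 0.12 and, at site 2, 1.91 ± 0.12 log2 units, or 4.53-fold and 3.76-fold (limma, adjusted p = 9.9e-12 and 7.5e-11). Map2k1, which encodes MEK1, the kinase that activates ERK, was higher in retina by 2.48-fold and 2.15-fold.

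The p38 kinases, the stress-activated branch of the family, differed among themselves. Mapk12 (p38 gamma) read 2.49, 2.40, 2.75, 2.49 and 2.27 in first-site retina and 0.545, 0.578, 0.526, 0.546 and 0.682 in cortex. On site 2 arrays it read 2.12, 1.94, 2.03, 2.24 and 2.04 in retina and 0.611, 0.549, 0.573, 0.635 and 0.402 in cortex, so that every retina array was above every cortex array. The difference was 4.32-fold and 3.78-fold towards retina (limma, adjusted p = 1.6e-12 and 7.0e-12). Mapk11 (p38 beta) pointed the other way, at -1.35 log2 units at the first site, which missed the threshold (adjusted p = 0.114), and -2.82 at site 2, which passed it (adjusted p = 0.002). Its first-site arrays did not overlap, and the first-site difference passed when only the 2 first-site groups were fitted (adjusted p = 3.1e-04), with values under 0.1 raised to 0.1 (0.024) and without the third retina array of site 2 (0.022), since the fit shares 1 spread over all groups. That site 2 value rested in part on 2 arrays: the fifth cortex array read 3.05 where the other 4 read 0.266 to 0.456, and 1 retina array read 0.00833. Without the cortex array it was -2.20, and without the retina array -2.01. Mapk14 (p38 alpha) was called at neither site, with 0.58 and 0.15 log2 units (adjusted p = 0.053 and 0.640), and without the fifth cortex array of site 2 it was 0.50 there.

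Of the JNK kinases, Mapk9 was 0.41 and 0.33 log2 units towards retina and Mapk10, the form known from neurons, 0.36 and 0.54 towards cortex (adjusted p = 5.2e-04, 0.0036, 0.003 and 6.4e-05), all under 2-fold. Mapk8 did not pass at the first site (-0.39, adjusted p = 0.204) and was 2.71-fold higher in cortex at site 2 (adjusted p = 6.1e-05). Mapkapk5, a kinase downstream of the p38 branch, was at 0.39 and 0.32 log2 units and was not called (0.52 at site 2 without the fifth cortex array).

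For the calcium-dependent enzymes, 5 genes with Camk symbols, among them the inhibitor Camk2n2, and 4 calcineurin genes were tested. The CaMKII subunits took opposite directions. Camk2d, the delta subunit, read 6.91, 6.11, 5.33, 6.38 and 5.97 in first-site retina and 1.41, 1.62, 1.25, 1.09 and 1.39 in cortex. At site 2 its retina arrays read 5.07, 4.61, 4.85, 4.98 and 4.78 and its cortex arrays 1.03, 1.10, 1.01, 1.19 and 0.969. This amounted to 2.19 ± 0.09 and 2.20 ± 0.09 log2 units towards retina, 4.56-fold and 4.58-fold (limma, adjusted p = 1.9e-13 at both sites).

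Camk2b, the beta subunit of brain CaMKII, was higher in cortex. It read 0.157, 0.138, 0.133, 0.141 and 0.178 in first-site retina and 0.582, 0.379, 0.516, 0.628 and 0.509 in cortex. Site 2 gave 0.145, 0.0864, 0.280, 0.108 and 0.0847 in retina and 0.377, 0.354, 0.384, 0.280 and 1.52 in cortex. The highest retina array and the lowest cortex array there read the same to 3 digits, and the last cortex value came from the array that stood apart. The difference was -1.79 ± 0.37 and -1.88 ± 0.37 log2 units (limma, adjusted p = 3.6e-04 and 2.2e-04), and without that array the site 2 value was -1.46 (adjusted p = 1.0e-04). Camk2a, the alpha subunit known for synaptic plasticity in the forebrain, was called at neither site: it read 27.2 to 32.4 in first-site retina and 29.9 to 37.0 in cortex, a difference of -0.21 ± 0.10. Camk4 was 1.64-fold and 1.62-fold higher in cortex, under the 2-fold limit.

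Calcineurin showed the same kind of split. Ppp3cc, the gamma catalytic subunit, read 7.03, 5.89, 6.56, 6.09 and 5.58 in first-site retina and 1.43, 1.58, 1.66, 1.62 and 1.87 in cortex. At site 2 it read 5.07, 4.82, 5.17, 4.84 and 4.73 in retina and 1.48, 1.53, 1.46, 1.59 and 2.58 in cortex, where the highest value was again that of the fifth array. The difference was 3.82-fold and 2.92-fold towards retina (limma, adjusted p = 7.9e-11 and 2.2e-09), and 3.25-fold at site 2 without that array. Ppp3cb, the beta subunit, lay towards cortex by 2.29-fold (called) and, at site 2, by 1.99-fold, just under the limit (2.11-fold, and called, without the fifth cortex array). Its second probe gave -1.22 and -0.47 log2 units. Ppp3ca, the alpha subunit, was 1.53-fold and 1.33-fold higher in cortex.

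**Figure D3:**
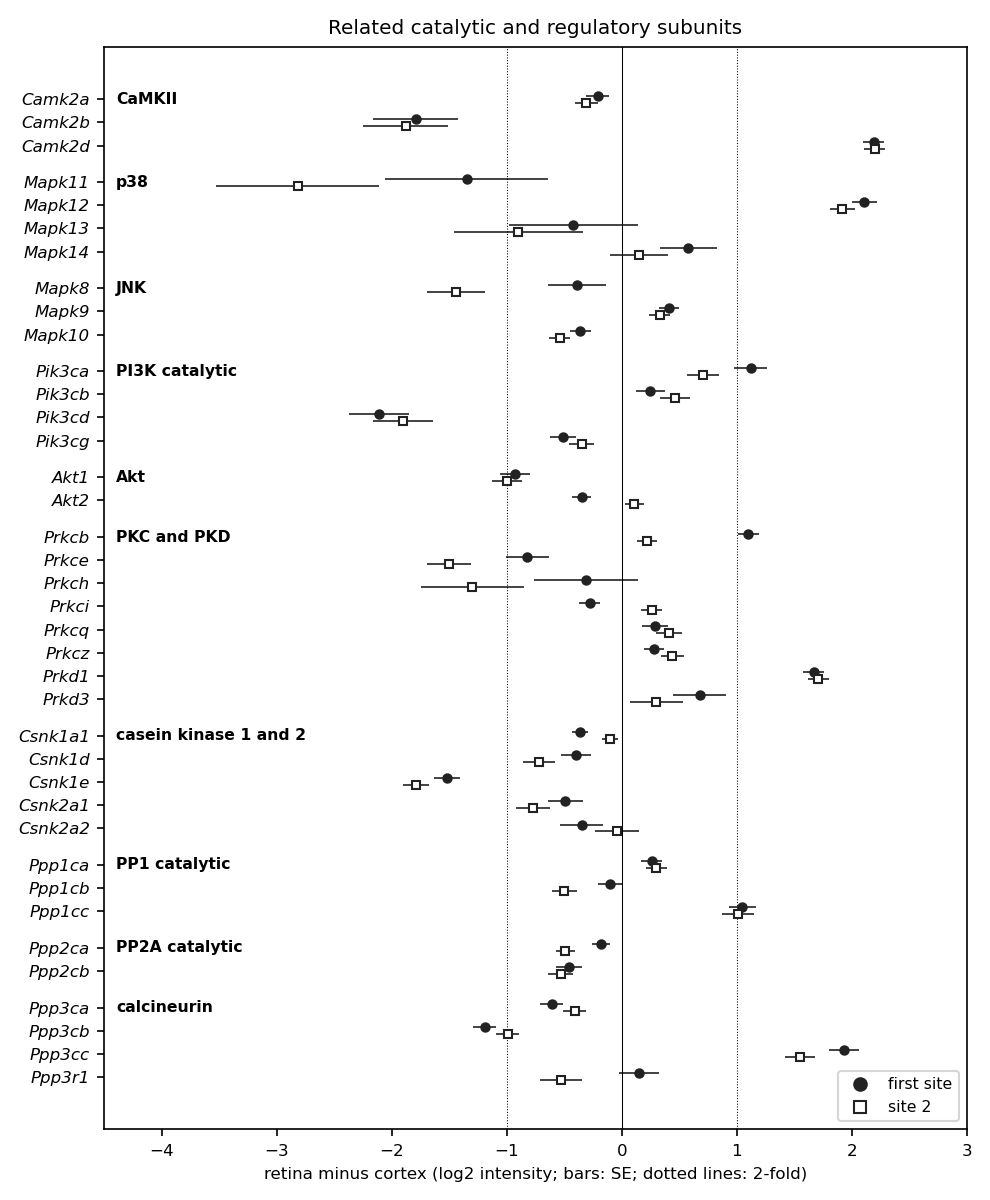
Retina minus cortex difference in log2 intensity for related subunits, grouped by family, with filled circles for the first site, open squares for site 2, bars for the SE of the fit and dotted lines at 2-fold. Camk2d, Mapk12 and Ppp3cc lie near 2 towards retina, while Camk2b, Pik3cd and Csnk1e lie towards cortex. Camk2a of the CaMKII family, Mapk14 of the p38 family and Csnk1a1 of the casein kinases stay within 2-fold. Pik3ca, a relative of Pik3cd, lies beyond 2-fold towards retina at the first site.

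Among the 10 genes with Prkc and Prkd symbols, first-site calls were 2 towards retina, and site 2 calls 1 towards retina and 2 towards cortex. Of all probes, 11.9% and 11.1% were called towards retina and 13.0% and 13.5% towards cortex at the 2 sites. Prkd1, a kinase downstream of protein kinase C, was the gene called at both. It read 2.81, 2.86, 2.66, 2.57 and 2.51 in first-site retina and 0.796, 1.04, 0.752, 0.773 and 0.880 in cortex, and its arrays did not overlap at site 2 either. The differences were 1.67 ± 0.09 and 1.71 ± 0.09 log2 units (limma, adjusted p = 1.1e-11 and 7.7e-12). Prkcb, the calcium-dependent beta isoform, lay towards retina by 2.14-fold (called) and, at site 2, by 1.16-fold. Prkce, a calcium-independent isoform, was 1.77-fold and 2.82-fold higher in cortex, the latter 2.51-fold without the fifth cortex array. The other site 2 call towards cortex, Prkch, rested on that array, which read 1.71 where the other 4 read 0.156 to 0.252: its difference of -1.30 log2 units was -0.66 without it, under 2-fold. Prkcz, the atypical zeta isoform, was at 0.28 and 0.44 log2 units and was not called.

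Of 15 genes of the PI3 kinase, Akt and Gsk3 group, 1 was called towards retina and 2 towards cortex in the first-site comparison, and 0 and 2 in that of site 2. The background was 11.9% and 13.0% of all probes, and 11.1% and 13.5% at site 2. Pik3cd, the delta catalytic subunit known from leukocytes, was called at both. It read 0.0427, 0.0626, 0.0477, 0.0605 and 0.0491 in first-site retina and 0.276, 0.219, 0.195, 0.208 and 0.227 in cortex. Its difference was -2.11 ± 0.26 and -1.90 ± 0.26 log2 units (limma, adjusted p = 9.6e-07 and 3.6e-06). These intensities were close to the dimmest on the arrays: with values under 0.1 raised to 0.1, the first-site difference was -1.16. Of the 7 leukocyte markers given beside Map4k1, 3 were called towards cortex and 4 at neither site, and their part was not tested here either.

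Pik3ca, the alpha catalytic subunit, leaned to retina, at 1.12 log2 units at the first site (called) and 0.71 at site 2 (under 2-fold; 0.90 without the fifth cortex array), while Pik3cb was at 0.25 and 0.46. Pik3r1, a regulatory subunit, was at -0.69 and -0.85. Akt1 was 1.00 log2 units higher in cortex at site 2, at the 2-fold limit and called, and 0.93 at the first site, which was not. Akt2 was at -0.35 and 0.11 and was called at neither site. Gsk3b, the kinase that Akt inhibits, was at 0.23 and -0.01 (the latter over 4 retina arrays).

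In the remaining kinase families, first-site calls were 1 of 3 S6 kinases, 1 of 5 casein kinases and 2 of 15 Stk genes. Site 2 calls were 1, 1 and 3. Of all probes, 24.9% and 24.6% were called at the 2 sites. Rps6ka6, the ribosomal S6 kinase RSK4, read 1.00, 1.04, 0.979, 1.08 and 1.28 in first-site retina and 4.65, 4.62, 4.79, 4.48 and 4.62 in cortex. The site 2 arrays read 1.14, 0.951, 1.03, 1.21 and 1.34 in retina and 4.60, 4.52, 3.97, 3.25 and 3.41 in cortex. It was 4.32-fold and 3.48-fold higher in cortex (limma, adjusted p = 2.5e-12 and 3.0e-11), the only one of 3 tested S6 kinases called. Csnk1e, a casein kinase 1 that acts on the clock protein PER, was higher in cortex by 2.88-fold and 3.46-fold, alone among 5 casein kinase genes. Csnk1a1, the alpha isoform, was at -0.36 and -0.10 log2 units and Csnk2a1 at -0.49 and -0.77.

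Of 15 numbered Stk genes, Stk33 was called at both sites, 3.98-fold and 2.77-fold higher in cortex. Stk4, the Hippo pathway kinase MST1, was -0.93 and -1.24 log2 units. It was called at site 2 alone, and without the fifth cortex array, which read 2.66 where the others read 0.761 to 0.909, it was -0.90 and not called. Stk11, the tumour suppressor LKB1 that activates AMP kinase, was at 0.38 and 0.35, and Stk25 at 0.05 and -0.02.

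All 5 dual-specificity phosphatases called at the first site were higher in retina, and so were all 6 called at site 2, out of 16 tested, beside 11.9% and 11.1% of all probes called towards retina. Over the 16 genes the median difference was 0.36 and 0.54 log2 units, and 12 and 11 of them were above 0, as were 47.7% and 47.4% of all probes. Those called at both sites were Dusp10, Dusp28, Dusp16, Dusp14 and Dusp22. Dusp10 (MKP-5), which dephosphorylates p38 and JNK, read 1.10, 1.19, 1.02, 1.13 and 1.01 in first-site retina and 0.186, 0.147, 0.168, 0.252 and 0.343 in cortex. On site 2 arrays it read 0.999, 0.973, 1.09, 1.07 and 1.16 in retina and 0.287, 0.349, 0.271, 0.503 and 0.296 in cortex. The retina arrays were tight and the cortex arrays spread by more than 2-fold at the first site, yet the groups stayed apart. The difference was 5.21-fold and 3.17-fold (limma, adjusted p = 1.9e-09 and 3.0e-07).

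Dusp16 (MKP-7), known for acting on JNK, was 2.62-fold and 3.36-fold higher in retina, over 4 retina arrays at site 2. With 0.1 added to every intensity its first-site difference was 0.84 log2 units, under 2-fold. The small atypical members Dusp28, Dusp14 and Dusp22 were higher in retina by 4.21-fold, 2.94-fold and 2.66-fold, and on site 2 arrays by 3.26-fold, 2.91-fold and 2.15-fold. Dusp4 (MKP-2), a nuclear ERK phosphatase, was not called at the first site (0.30 log2 units, adjusted p = 0.072) and was at 1.06 at site 2, which became 0.99 without the fifth cortex array. Dusp6 (MKP-3), the cytoplasmic ERK phosphatase, was 0.85 and 0.79 log2 units higher in cortex, under 2-fold. Dusp1, an immediate early MAP kinase phosphatase, was at 0.43 and 0.40, and Dusp23 at 0.06 and 0.49.

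Of 18 tested genes with Ptpr symbols, 1 was called towards retina and 3 towards cortex at the first site, and 0 and 5 at site 2. Beside these, 13.0% and 13.5% of all probes were called towards cortex. The call towards retina was that of Ptprcap, which is associated with a receptor phosphatase and is not one itself. Without the fifth cortex array the site 2 calls were 0 and 3, as Ptprc and Ptprg (-1.45 log2 units, then -0.91) were lost. The median difference was -0.34 and -0.39, and 14 and 15 of the 18 were below 0, as were 52.3% and 52.6% of all probes. The 3 called at both were Ptprk, Ptpro and Ptprs. Ptprk, an adhesion molecule that binds its own kind, read 1.91, 1.85, 1.72, 1.90 and 1.87 in first-site retina and 5.93, 6.91, 5.24, 5.43 and 6.55 in cortex. It was 3.24-fold and 3.51-fold higher in cortex (limma, adjusted p = 1.2e-11 and 4.9e-12). Ptpro, known from podocytes and growing axons, was 3.13-fold and 2.67-fold higher, and Ptprs, a receptor for proteoglycans on axons, 2.22-fold and 2.01-fold.

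Ptprc, the leukocyte antigen CD45, was dim. It read 0.0328 to 0.0666 in first-site retina and 0.0577 to 0.0753 in cortex, groups that overlapped. At site 2 it was called at -2.96 ± 1.18 log2 units (limma, adjusted p = 0.036), with 1 retina array at 0.000383 and the fifth cortex array at 1.88. It was -2.13 without that cortex array (adjusted p = 0.113) and -1.48 without that retina array (adjusted p = 0.078). Ptprcap, a protein associated with CD45, was at 1.09 and 0.71 log2 units towards retina. Ptprn and Ptprn2, proteins of dense-core vesicles, were at 0.66 and 0.61 (0.85 at site 2 without the fifth cortex array) and at -0.43 and -0.36. Ptprd and Ptprb, the latter a vascular phosphatase, were within 0.22 of 0 at both sites, and Ptprf was at -0.71 and -0.31.

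Among the genes analysed here, the non-receptor tyrosine phosphatases held the largest difference towards retina and one of the largest towards cortex. Of 13 tested genes, 4 were called towards retina and 2 towards cortex on first-site arrays, and 2 and 3 on those of site 2. The background was 11.9% and 13.0% of all probes, and 11.1% and 13.5% at site 2. Ptpn21, a phosphatase with a FERM domain that binds the cytoskeleton, read 1.19, 1.32, 1.38, 1.12 and 1.23 in first-site retina and 0.116, 0.110, 0.116, 0.0919 and 0.113 in cortex. Site 2 gave 1.80, 1.39, 1.42, 1.63 and 1.56 in retina and 0.156, 0.167, 0.190, 0.120 and 0.0990 in cortex. The difference was 3.51 ± 0.14 and 3.45 ± 0.14 log2 units, 11.4-fold and 10.9-fold (limma, adjusted p = 5.4e-14 and 7.3e-14). With 0.1 added to every intensity it was 2.68 and 2.76.

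Ptpn5 encodes STEP, a phosphatase enriched in striatum that acts on ERK and on glutamate receptors. It read 0.122, 0.140, 0.104, 0.135 and 0.0992 in first-site retina and 2.42, 1.71, 2.28, 2.18 and 1.96 in cortex. At site 2 it read 0.128, 0.185, 0.166, 0.137 and 0.132 in retina and 2.47, 2.64, 3.08, 2.97 and 1.91 in cortex. The difference of -4.14 ± 0.14 and -4.12 ± 0.14 log2 units, 17.6-fold and 17.4-fold, hardly moved between sites (limma, adjusted p = 7.5e-15 and 8.6e-15). Of 4 measured markers listed for striatal neurons, 2 (Rgs9 and Drd2) were higher in retina and 0 in cortex at both sites. Whether these markers report striatal neurons in a comparison with retina was not tested. Penk was -0.33 log2 units at the first site and 0.04 at site 2. Their summed intensity was 27.2 to 30.4 in first-site retina and 17.2 to 20 in cortex, and 20 to 23.9 and 10.4 to 14 at site 2, and their part in the Ptpn5 difference was not tested.

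Ptpn9 was 2.43-fold and 2.00-fold higher in cortex. Ptpn2, which acts on JAK kinases, was 2.47-fold and 2.16-fold higher in retina. Its site 2 cortex arrays read 0.527 to 0.736 except for the fifth at 3.15, and without that array its difference was 1.57 log2 units in place of 1.11. Ptpn4 was at 1.30 and 0.91, called at the first site. Ptpn18 was called at the first site (1.60, adjusted p = 0.0063) and not at site 2 (-0.19, adjusted p = 0.756), where the fifth cortex array read 4.10 and the others 0.343 to 0.496. Without it the site 2 value was 0.49. Ptpn6 (SHP-1), known from blood cells, was at -0.24 and -1.30 and called at site 2. That call was lost with values under 0.1 raised to 0.1 (-0.97) and with 0.1 added to every intensity (-0.73). The leukocyte marker sums are given beside Map4k1, and their part was not tested.

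Of 23 tested protein phosphatase 1 genes, 4 were called towards retina and 1 towards cortex on first-site arrays, and 5 and 1 on those of site 2. The background was 11.9% and 13.0% of all probes, and 11.1% and 13.5% at site 2. Without the fifth cortex array the site 2 counts were 2 and 1, with Ppp1r12c (1.05 log2 units, then 0.94) and Ppp1r14d (1.01, then 0.71) lost and Ppp1cc untested. The cortex gene was Ppp1r14b, an inhibitor of the catalytic subunit, which read 3.19, 2.81, 3.16, 2.83 and 2.70 in first-site retina and 25.1, 28.2, 27.4, 30.4 and 29.2 in cortex. The site 2 arrays read 3.28, 3.23, 3.04, 3.26 and 3.43 in retina and 33.1, 32.0, 35.9, 31.4 and 28.4 in cortex. With -3.26 ± 0.07 and -3.31 ± 0.07 log2 units (9.57-fold and 9.89-fold) it had the smallest adjusted p of the group (limma, 2.7e-17 and 1.7e-17). The copy Ppp1r14bl, which has a similar sequence, was at -0.67 and -0.60. Whether its probe shares signal with Ppp1r14b was not tested.

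Ppp1r17, the G-substrate of cyclic GMP-dependent kinase and known as an inhibitor of phosphatases, was higher in retina. It read 1.12, 1.14, 0.974, 0.995 and 0.991 in first-site retina and 0.0835, 0.115, 0.121, 0.0900 and 0.136 in cortex. On site 2 arrays it read 1.22, 1.5, 1.16, 1.02 and 0.958 in retina and 0.149, 0.131, 0.535, 0.171 and 0.132 in cortex, where 1 array lay above the other 4. The difference was 9.72-fold and 6.14-fold (limma, adjusted p = 5.8e-09 and 1.5e-07). Ppp1r10, the nuclear regulator PNUTS, was 2.69-fold and 2.49-fold higher in retina.

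Among the 3 catalytic subunits of protein phosphatase 1, Ppp1cc was higher in retina by 2.07-fold and 2.02-fold, the site 2 value over 3 cortex arrays. Its first-site difference was 0.96 log2 units, under 2-fold, without the first retina array. Ppp1ca was at 0.26 and 0.30 log2 units and Ppp1cb at -0.10 and -0.50, and neither was called. Outside protein phosphatase 1 and calcineurin, Ppp2ca, the catalytic subunit of protein phosphatase 2A, was at -0.18 and -0.49. Ppp2r5e, a targeting subunit of the same enzyme, lay towards retina by 1.85-fold and, at site 2, by 2.99-fold (called).

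**Figure D4:**
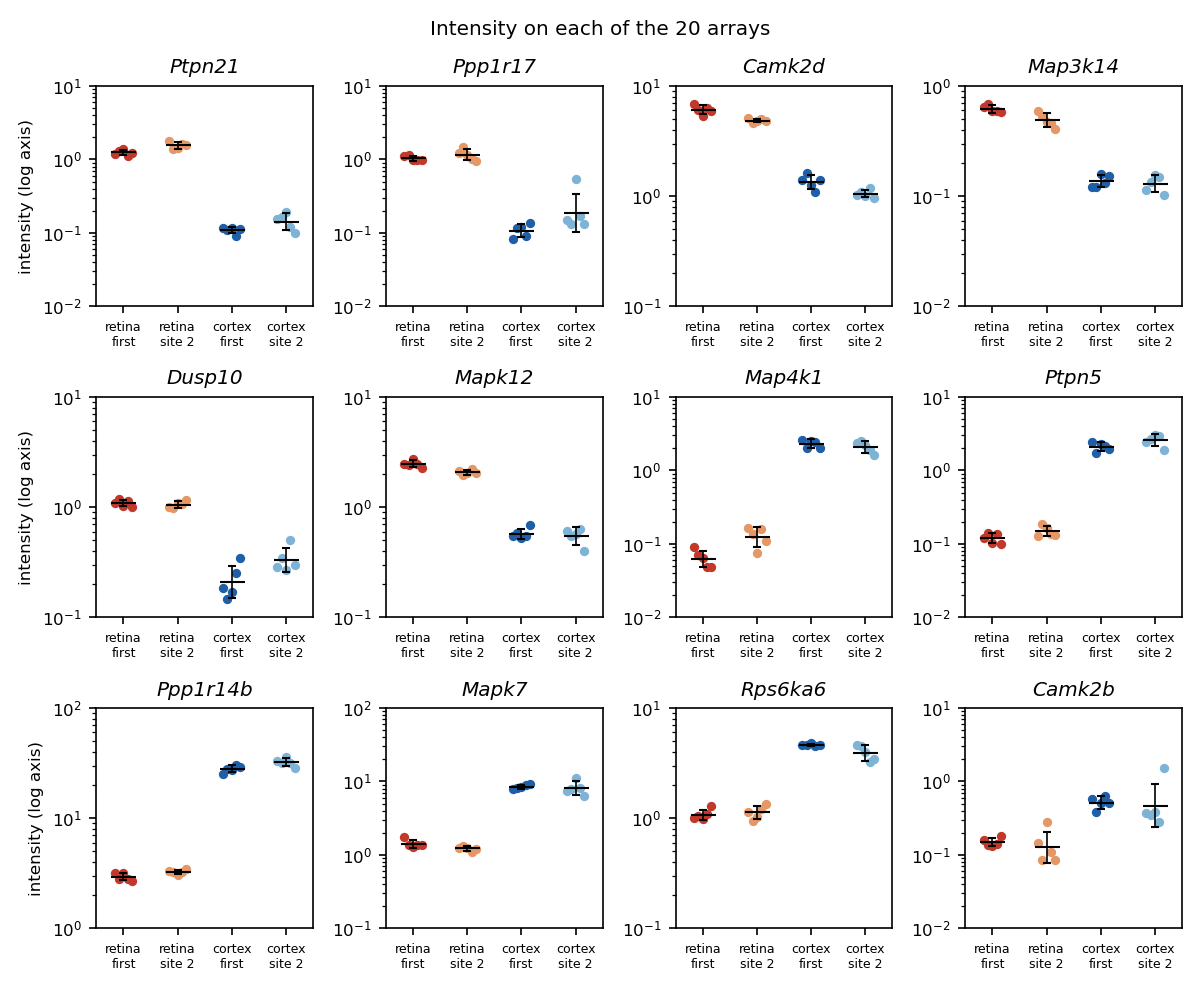
Intensity on each of the 20 arrays (log axis) for 12 of the genes with the largest differences, in columns for retina and cortex at the first site and site 2; horizontal bars mark the mean of the log2 values and error bars their SD (n = 5). For Map4k1 all 10 cortex arrays read at least 1.62 and all retina arrays at most 0.163, and single high cortex arrays stand out for Ppp1r17 (0.535) and Camk2b (1.52).

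Promoter sequence was examined for the genes called at both sites, to show what sequence lies in front of genes that differed in opposite directions. Windows of 250 bases before the transcription start were taken from RefSeq (GRCm38.p6) for the 142 of 177 genes that matched by gene ID. The GC box GGGCGG, a binding sequence of Sp1, was searched on both strands, overlaps included. It was in 59.2% of the windows of these genes, beside 42.6% of the windows of all protein-coding genes and 32.7% of all windows. By gene, 70.4% of the matched signalling genes had it in at least 1 window, beside 45.8% of protein-coding genes. Among genes called at both sites it was in 15 of 15 windows of the 13 matched genes higher in retina, and in 16 of 24 windows, or 11 of 14 matched genes, of those higher in cortex. The cyclic AMP response element TGACGTCA was in 1.92% of the windows of protein-coding genes and in 5.24% of those of the signalling genes. The core TAATCC bound by the photoreceptor factor Crx was in 5.81% and 3.66%, and neither was in a window of any gene called at both sites.

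The windows of Ptpn21 and Ptpn5, which differed most in opposite directions among the tyrosine phosphatases, and of Camk2d and Camk2b, the CaMKII pair that split, follow 5′ to 3′ on the strand of the gene, with GC boxes of either strand in capitals. Ptpn21 lies at chr12:98737406-98737655 (minus strand), Ptpn5 at chr7:47133685-47133934 (minus), Camk2d at chr3:126596701-126596950 (plus) and Camk2b at chr11:6065749-6065998 (minus). For Ptpn21 and Ptpn5, each with 2 windows in the table, the first is shown.
Ptpn21: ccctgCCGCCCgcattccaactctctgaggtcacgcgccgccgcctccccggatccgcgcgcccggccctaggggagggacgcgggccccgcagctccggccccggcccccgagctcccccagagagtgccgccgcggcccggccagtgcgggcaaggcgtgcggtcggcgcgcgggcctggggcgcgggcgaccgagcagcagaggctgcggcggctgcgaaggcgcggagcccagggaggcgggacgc
Ptpn5: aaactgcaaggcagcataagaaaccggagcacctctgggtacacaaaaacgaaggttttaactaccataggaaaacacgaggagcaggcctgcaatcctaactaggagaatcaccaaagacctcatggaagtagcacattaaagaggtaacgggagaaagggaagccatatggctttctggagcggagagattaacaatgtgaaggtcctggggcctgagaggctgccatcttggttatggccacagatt
Camk2d: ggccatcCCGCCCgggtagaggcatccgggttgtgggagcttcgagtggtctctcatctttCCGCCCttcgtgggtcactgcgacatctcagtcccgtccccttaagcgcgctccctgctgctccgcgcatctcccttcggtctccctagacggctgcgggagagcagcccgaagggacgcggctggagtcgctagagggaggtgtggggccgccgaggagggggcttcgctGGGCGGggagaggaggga
Camk2b: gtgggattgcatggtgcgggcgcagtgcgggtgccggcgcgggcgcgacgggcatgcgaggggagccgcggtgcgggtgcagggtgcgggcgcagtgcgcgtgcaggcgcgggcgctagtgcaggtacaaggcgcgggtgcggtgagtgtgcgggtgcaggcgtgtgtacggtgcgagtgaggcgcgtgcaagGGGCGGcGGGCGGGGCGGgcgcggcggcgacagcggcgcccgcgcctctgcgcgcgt
The Ptpn21 window had 1 GC box, the Ptpn5 window 0, and the Camk2d and Camk2b windows 3 each. The second windows, not shown, held 1 for Ptpn21 and 3 for Ptpn5. G and C made up 81.2% of the Ptpn21 window, 48.0% of the Ptpn5 window, 68.4% of the Camk2d window and 78.4% of the Camk2b window.

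Genes around these pathways were counted from lists. Over all tested probes, 9.31% were called towards retina at both sites and 10.5% towards cortex. Of 15 measured Ras, Raf and regulator genes, 1 was called at both sites: Nras, 3.04-fold and 3.26-fold higher in cortex. Of 18 immediate early and MAP kinase target genes, 3 were higher in retina and 2 in cortex at both. Fos was 7.08-fold and 4.19-fold (6.17-fold at site 2 without the fifth cortex array) and Nr4a1 2.90-fold and 3.06-fold higher in retina, while Myc, a growth-promoting transcription factor, was 38.7-fold and 41.3-fold and Egr2 13.7-fold and 6.01-fold higher in cortex. None of 12 PI3 kinase and mTOR partners was called at both sites, and 2 were called at either.

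Of 13 partners of calcium, calmodulin and calcineurin, 1 was higher in retina and 3 were higher in cortex at both sites. For this list and the following ones the background was again 9.31% and 10.5% of all probes. Pcp4, a calmodulin regulator, was 2.14-fold and 2.32-fold higher in retina. Nrgn, the calmodulin-binding protein neurogranin, was higher in cortex by 24.8-fold and 21.7-fold, and Marcksl1, a substrate of protein kinase C, 23.9-fold and 28.7-fold. Of 9 protein kinase A genes, Prkar2b, a regulatory subunit, was 8.79-fold and 6.19-fold and Pkia, an inhibitor, 6.69-fold and 7.0-fold higher in cortex. Of 11 non-receptor tyrosine kinases, 3 were higher in cortex and 0 in retina at both sites, among them Fyn (4.04-fold and 6.28-fold) and Tec (2.63-fold and 3.24-fold).

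Without the minimum fold, the same RNA read differently at the 2 sites for 73 of the 175 tested genes in retina and 88 in cortex. With it, 7 and 16 were called. In retina, 6 genes read higher and 1 lower at site 2, beside 4.79% and 1.45% of all probes. In cortex 15 read higher and 1 lower, beside 5.29% and 1.92%, and the total of 16 was 10 with quantile normalization and 9 with 0.1 added to every intensity. In either direction the background was 6.24% in retina and 7.21% in cortex. Stk32c, Mapk8, Dusp8, Ptpn11, Map4k4 and Ptpre were called in both tissues. Stk32c read 0.0475 to 0.231 in first-site retina and 0.265 to 0.820 at site 2, and 0.0587 to 0.128 and 0.612 to 1.15 in cortex, which was 6.61-fold and 9.27-fold (limma, adjusted p = 9.6e-06 and 1.6e-06). Its retina and cortex arrays overlapped at both sites. Ptpn11 (SHP-2), an activator of Ras signalling, was 2.70-fold and 3.15-fold higher at site 2, and Mapk8 2.54-fold and 5.28-fold. Dusp8 was 2.34-fold and 4.15-fold higher, Map4k4 2.02-fold and 2.70-fold, and Ptpre 2.10-fold and 2.34-fold. The retina calls of Map4k4 and Ptpre were lost with quantile normalization (0.72 and 0.70 log2 units), with 0.1 added (0.63 and 0.54) and without single retina arrays (0.92 to 1.00 and 0.90 to 1.00), and that of Ptpre with values under 0.1 raised to 0.1 (0.60).

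Csnk1d, a relative of Csnk1e, was the gene called in retina only, 2.19-fold lower at site 2, and 10 genes were called in cortex only. Among the latter, Akt1s1, an inhibitor of the mTOR complex, was 2.72-fold lower at site 2, while Pik3c2a was 2.57-fold, Ptprv 2.64-fold and Map3k20 2.50-fold higher. Ptprv and Map3k20 were not called with quantile normalization (0.93 log2 units for both), with values under 0.1 raised to 0.1 (0.77 and 0.93) or with 0.1 added (0.72 and 0.77), and Map3k20 not without the fourth cortex array of site 2 (0.92). Pik3c2a was at 0.98 with 0.1 added. Ptpn18 was 4.42-fold higher, or 2.14 log2 units, and 1.47 without the fifth cortex array of site 2.

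**Figure D5:**
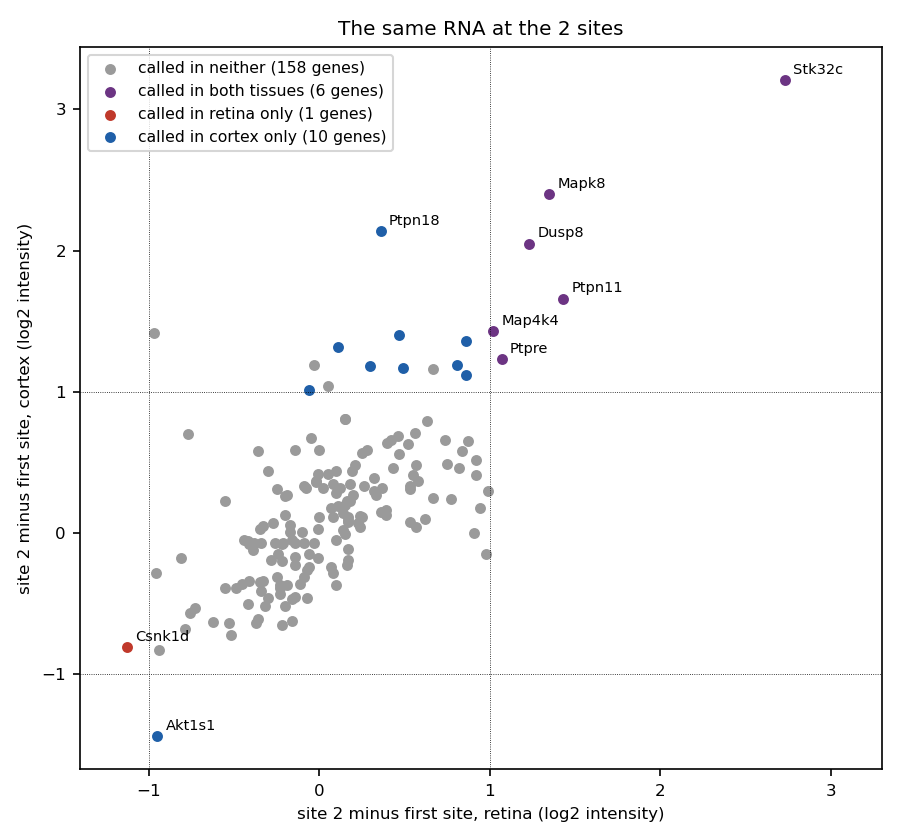
Site 2 minus first site difference in log2 intensity for the retina pool (horizontal axis) and the cortex pool (vertical axis) of the 175 tested genes, with dotted lines at 2-fold. Stk32c lies highest in both tissues (2.73 and 3.21), and 158 genes, in grey, were called in neither.

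The retina-cortex difference itself was called as different between sites for 1 gene, Map4k1, beside 0.725% of all probes (0.271% in its direction). Its difference was 1.13 ± 0.29 log2 units smaller in size at site 2 (limma, adjusted p = 0.035). The call did not hold with values under 0.1 raised to 0.1 (0.53, adjusted p = 0.110), with quantile normalization (0.77, adjusted p = 0.132), or when any of 12 single arrays was left out (adjusted p = 0.050 to 0.067). Below 2-fold, 7 further genes had an adjusted p under 0.05, among them Stk32b (-0.94) and Prkcb (-0.88). Stk32b lay towards retina by 3.10-fold and, at site 2, by 1.61-fold, where its cortex arrays read 0.832 to 1.22 against 0.657 to 0.787 at the first site. Prkcb read 1.52 to 2.02 in first-site cortex and 3.37 to 4.52 at site 2, while its retina arrays read 3.42 to 3.95 and 4.39 to 5.25. Without the fifth cortex array of site 2, 5 genes were called here: Map4k1, Stk32b, Ptpn18, Ptpn6 and Map3k20.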

How the data were processed

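RNA of the 2 pools was measured on 20 arrays (5 per tissue and site). The authors deposited 1 linear intensity per probe and array for 10500 probes, labelled with biotin under the CodeLink protocol, per the labels. How the scans were read, background-corrected and scaled is not given in the sources used here. Values at or below 0 (143) and blanks (2080) were treated as missing, and no further normalization was applied, because array medians of log2 intensity differed by at most 0.0594. Probes with a value on at least 3 of 5 arrays of each group (10339) were fitted with limma 3.58.1 in R 4.3.3 (lmFit, eBayes), with 4 group means over all 20 arrays and Benjamini-Hochberg adjustment over all probes. Symbols came from the platform annotation, and 177 of 177 Entrez IDs were found in RefSeq (GRCm38.p6). The number of arrays limits the precision.

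Members and lists were chosen with earlier results of these data known. Named were, per tissue, the 10 most different genes by mean over sites among those called at both, the brightest and the most different genes of each role group, up to 10 genes called between sites, 45 fixed genes (10 of them not analysed here) and the leading 2 partners per list and direction, plus 18 genes outside this rule, chosen after their values were seen: Mapk9, Mapk11, Map3k7, Ptpn2, Ptpn4, Ptpn6, Stk4, Dusp14, Dusp22, Ppp1cb, Ppp1cc, Ppp1r10, Ppp2r5e, Pik3cb, Prkch, Ptprg, Ppp1r12c and Ppp1r14d. Alternatives were quantile normalization, median centring, a floor or pseudocount of 0.1, missing-value and brightness filters, other sample sets, the mean of a gene's probes, no minimum fold, a replicate block and leaving out each array.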

Additional observations from a re-analysis of the deposited data

Results flagged for a closer look

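Map4k1 was flagged because its retina-cortex difference differed between the sites by 1.13 log2 units, and Egr2 because its own did by 1.19 (limma, adjusted p = 0.035 and 0.014). Single arrays far from the other 4 of their group were found by Dixon's test for 57 of 395 groups of arrays, and chance flags about 1 group in 20. The genes tested include 18 chosen after their values were seen, so these counts do not stand for all genes.

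The fifth cortex array of site 2 held 23 of these. It read highest for Ppp3cc (2.58), Camk2b (1.52), Ptprk (8.76), Mapkapk5 (10.9), Prkce (4.35), Pik3ca (3.92), Ptprc (1.88), Ptpn18 (4.10), Mapk14 (7.29), Ptprn (5.45), Dusp1 (3.13), Myc (7.13), Fos (2.00), Mapk11 (3.05), Ptpn2 (3.15), Stk4 (2.66), Dusp22 (2.60), Prkch (1.71) and Ptprg (3.75). It read lowest for Camk2a (20), Stk32b (0.832), Akt1s1 (0.586) and Prkar2b (4.11). Other cortex arrays of site 2 stood out for Ppp1r17 (0.535, replicate 3), Ptprcap (0.519, replicate 4), Ptpn11 (0.546, replicate 4), Ptpn4 (0.300, replicate 1) and Pcp4 (19.4, replicate 2).

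The first retina array of the first site held 9. It read highest for Mapk7 (1.74), Map4k4 (0.157), Ppp1ca (55.3), Ppp3cb (4.10), Ptprb (1.78), Ptprd (1.76) and Ppp1cc (57.2), and lowest for Stk32b (1.99) and Ptpn18 (0.323). Other retina arrays of that site stood out for Dusp16 (0.214, replicate 2), Ptprcap (0.530, replicate 5), Prkcb (3.42, replicate 5), Ptprf (0.271, replicate 3) and Fyn (0.976, replicate 3).

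First-site cortex arrays stood out for Dusp28 (1.31), Akt2 (8.69), Pik3r1 (0.922), Stk32c (0.0587) and Fos (0.266), all on replicate 2, and for Ptpn21 (0.0919) and Pcp4 (25.4) on replicate 4, Csnk1e (4.49) and Mapk9 (1.27) on replicate 1 and Ppp1cb (17.1) on replicate 5. Retina arrays of site 2 stood out for Dusp23 (21.8), Ptprc (0.000383) and Gsk3b (1.47, among 4 arrays) on replicate 1, Mapk11 (0.00833) on replicate 3 and Stk32c (0.265) on replicate 5.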

How the results depend on the processing

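Of 6661 recomputed differences for 216 results of named genes, 6482 kept their side of the threshold, 79 passed it and 100 missed it under the alternative. Direction was compared only where the main result or the alternative was called, and 0 of those changed it. Changes of sign between results that were both not called were not counted. Without the minimum fold, first-site calls were 51 towards retina and 62 towards cortex, site 2 calls 55 and 71, 73 and 88 differed between sites in retina and in cortex, and 8 in the interaction. The interaction count was 0 with a floor of 0.1 and 0 with the replicate block. The count between sites in cortex, 16, was 10 with quantile normalization and 9 with a pseudocount of 0.1. Leaving out each array gave 22 to 25 first-site calls towards retina and 18 to 20 towards cortex, 16 to 20 and 25 to 30 site 2 calls, 6 to 9 and 14 to 18 between sites in retina and in cortex, and 0 to 5 in the interaction. Replicate numbers did not pair the arrays: deviations of same-numbered arrays correlated at -0.078 to -0.020 on first-site and 0.003 to 0.043 on site 2 arrays, no array correlated best with its own number, and with the replicate block the counts were 23 and 18, 20 and 30, and 7 and 16.

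Differences near 2-fold changed call with single arrays. Ptpn9, Ptprs and Akt1 at site 2 were at -0.94 to -1.0 log2 units, and not called, without one or another of the site 2 arrays. Dusp4 was at 0.99 without retina replicate 5 or cortex replicate 5 of site 2, Ptpn2 at 0.93 and 0.96 without cortex replicates 3 and 4, Ppp1cc at 0.99 and 0.98 without retina replicates 2 and 5, Map3k20 at -0.99 and -0.74 without cortex replicates 1 and 4, and Ptprc was not called without retina replicate 1 or 3 or cortex replicate 5. Ppp1r14d was at 0.71 to 1.00 without retina replicate 1 or 5 or cortex replicate 2 or 5 of site 2, and Prkch at -1.10 and -0.93 (not called) with quantile normalization and a pseudocount. At the first site Ptprcap was at 0.98 without cortex replicate 1. A pseudocount of 0.1 reduced the dim genes most: Map4k1 to -3.88 and -3.28, Ptpn5 to -3.32 and -3.43, Pik3cd to -1.09 and -1.10, Ppp1r17, Map4k4 and Stk33 to 2.46, -1.22 and -1.28 at the first site, Myc to -4.25 and -4.47, Egr2 to -2.35 and -1.89, Marcksl1 to -3.83 and -3.94, Ppp1r14d to 0.37 at site 2 (not called) and Stk32c between sites to 1.81 and 2.35. Signal over background was not available as a flag, which limits what can be said of intensities near 0.1.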
